A study of Mus musculus with 6 samples.

Results

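The genes described here are 10 macrophage scavenger and lipid genes of the mouse, Mrc1, Msr1, Trem2, Cd36, Apoe, Gpnmb, Lpl, Fabp5, Plin2 and Abca1. They were chosen by name, and all 10 were found among the 27933 genes counted in each of 6 single-cell RNA libraries from breast tumours. Macrophages take up modified lipoproteins, dead cells and glycoproteins through scavenger and lectin receptors on their surface. The lipid taken up is carried by binding proteins and apolipoproteins, stored as cholesteryl ester and triglyceride in lipid droplets, or exported as cholesterol by membrane transporters. In tumours and other lipid-rich tissues, macrophages in which this programme is active are known as lipid-associated macrophages. Mrc1 encodes the mannose receptor CD206, Msr1 the class A scavenger receptor, Trem2 a lipid-sensing receptor that signals through the adaptor Tyrobp, and Cd36 the class B scavenger receptor that also takes up fatty acids. Apoe encodes apolipoprotein E, Lpl lipoprotein lipase, Fabp5 a fatty acid binding protein, Plin2 the coat protein of lipid droplets and Abca1 the transporter that loads cholesterol onto apolipoprotein A-I. Gpnmb encodes a glycoprotein of lysosomes and the cell surface.

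The tumours were grown from 4T1, a mouse mammary carcinoma cell line, in Balb/c mice. In one group, ferrimagnetic vortex iron oxide particles (FVIO) had been put into the tumour at 0.1 mg per cm3, followed by 10 min of an alternating magnetic field of 365 kHz, which the study calls mild magnetic hyperthermia (MHT). The other group received phosphate-buffered saline (PBS), and both were collected at 24 h. Each group had 3 libraries, and the comparison asked how the treated tumours, and in particular their macrophages, differed from the controls. The sources used here do not say whether the PBS mice met the field or whether each replicate is a separate mouse, so the tests measure the spread between these libraries. The labels call the cells murine breast cancer cells, but the libraries are of whole dissociated tumours and hold immune and stromal cells as well.

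Transcripts were counted by Drop-seq as unique molecular identifiers (UMIs) per cell barcode. The total depth was between 678337 and 2207534 UMIs per library, and the barcodes with at least 200 detected genes numbered between 332 and 2325, with median depths of 400 to 834 UMIs. Kept barcodes were assigned to a cell class by the UMIs of marker genes, none of which is among the 10 genes, and between 22.1% and 51.1% of those of a library stayed unassigned. Mononuclear phagocytes, the class of macrophages and monocytes, were set by the genes of complement C1q, Arg1, Mmp12, Ly6c2, Csf1r, Adgre1 and others, and numbered 53, 206 and 408 barcodes in FVIO-MHT replicates 1, 2 and 3 and 106, 192 and 79 in PBS replicates 1, 2 and 3. Myeloid genes that took no part in the assignment (Tyrobp, Fcer1g, Lyz2, Cd14 and Ms4a6c) summed to between 3529 and 7287 CPM (UMIs of a gene for every 1000000 UMIs of the class or library) in this class. Markers of adipocytes (Adipoq, Plin1 and Cidec), which also use Lpl, Plin2 and Cd36, were at 0 UMIs in it. A list of 4 osteoclast markers was not at 0. It summed to 261, 1004 and 878 CPM in the phagocytes of FVIO-MHT replicates 1, 2 and 3. With PBS it summed to 47.6, 212 and 78.8 CPM in replicates 1, 2 and 3. The part of such cells in the levels of the 10 genes was not tested. PBS replicates 2 and 3 had 33 kept barcode sequences in common, 6.85% of those of replicate 3. No other pair of libraries shared more than 1, and leaving the shared ones out ended no call for the 10 genes. FVIO-MHT replicate 1 stood apart: 55.4% of its kept barcodes were neutrophils, against 32.1% and 0.817% in FVIO-MHT replicates 2 and 3 and 5.37%, 0.752% and 2.49% in PBS replicates 1, 2 and 3.

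The 10 genes did not share one cellular source. Mrc1 and Msr1 were read mainly from mononuclear phagocytes, and Apoe and Trem2 somewhat less so. Plin2 and Abca1 were shared between phagocytes and other classes, with large neutrophil shares in FVIO-MHT replicates 1 and 2. Over the libraries summed, most Lpl came from fibroblasts and the largest part of Cd36 from endothelial cells. With the 6 libraries summed, mononuclear phagocytes held 10.8% of the UMIs of all genes, but 85.4% of 452 Mrc1 UMIs, 83.2% of 546 Msr1 UMIs, 68.3% of 4397 Apoe UMIs and 66.0% of 94 Trem2 UMIs. Of 428 Abca1 UMIs they held 44.6% and neutrophils 24.3%, but the median of the neutrophil share over libraries was 8.54%, since 37 and 60 of the 104 neutrophil UMIs were in FVIO-MHT replicates 1 and 2. Of 1321 Plin2 UMIs neutrophils held 30.7%, phagocytes 28.0% and tumour epithelial cells 21.7%, while the medians over libraries were 13.6%, 28.1% and 29.3%, since 158 and 209 of the 405 neutrophil UMIs were in the same 2 libraries. Of 652 Fabp5 UMIs tumour epithelial cells held 39.1%, phagocytes 24.5% and skin keratinocytes 8.13%, with medians over libraries of 23.9%, 25.0% and 2.99%. Endothelial barcodes gave 48.1% of 189 Cd36 UMIs, phagocytes 15.9%. Fibroblasts gave 63.6% of 214 Lpl UMIs, phagocytes 9.81%. Over libraries the fibroblast share of Lpl ran from 28.6% to 100%, with a median of 54.4%. The 28.6% was in PBS replicate 1, where phagocytes held 5 of 7 Lpl UMIs. The phagocyte share of Apoe ran from 35.5% to 85.7%, with a median of 69.5%. Gpnmb was the rarest of the 10, with 62 UMIs in all, of which 38.7% were in phagocytes.

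**Figure D1:**
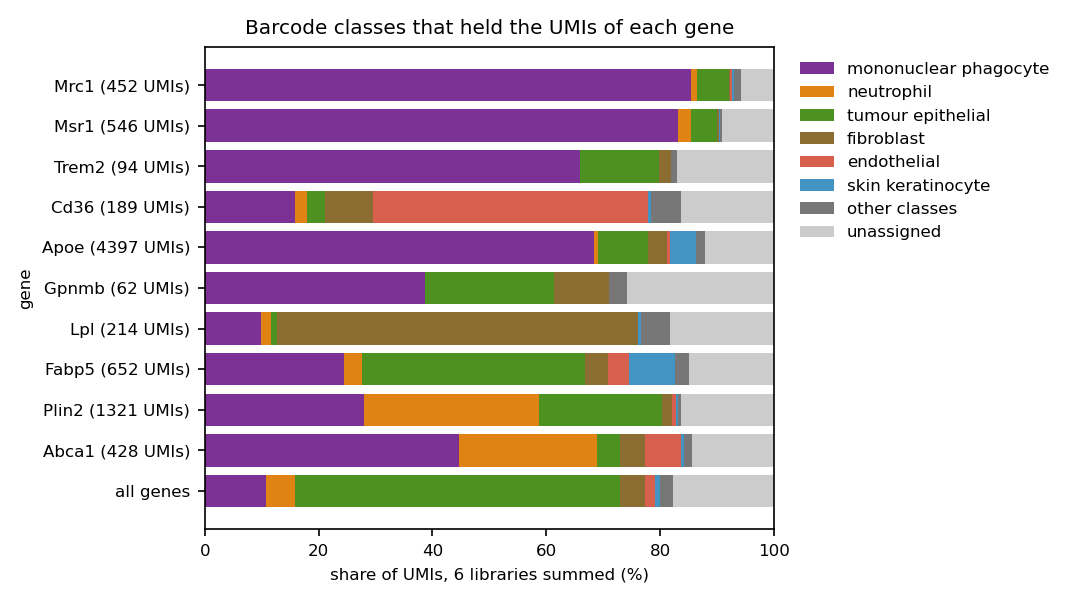
Share of each gene's UMIs (x axis, percent, 6 libraries summed) that fell in each class of barcodes, with all genes together in the lowest bar. Mononuclear phagocytes held 85.4% of Mrc1 and 83.2% of Msr1 UMIs but 9.81% of Lpl UMIs, while fibroblasts held 63.6% of Lpl and endothelial barcodes 48.1% of Cd36.

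Mrc1 stood at 359, 215 and 562 CPM in the phagocytes of FVIO-MHT replicates 1, 2 and 3 and at 745, 820 and 945 CPM in those of PBS replicates 1, 2 and 3. In all other kept barcodes it was between 2.93 and 26.6 CPM, so no library overlapped between the 2 kinds of barcode. The difference was 5.30 ± 0.59 on the log2 scale (SE, 6 libraries, edgeR adjusted p = 7.92e-05). Msr1 stood at 327, 667 and 587 CPM in phagocytes with FVIO-MHT and at 650, 873 and 929 CPM with PBS, against 10.5 to 30.2 CPM in the other barcodes. Its log2 difference was 5.15 ± 0.43 (SE, edgeR adjusted p = 1.11e-05). The summed level of both receptors was thus higher in phagocytes than in the sum of all other kept barcodes in each of the 6 libraries. These are sums over barcodes and do not separate single barcodes or each single class.

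Of the 10 genes, 7 were higher in phagocytes past the threshold (Benjamini-Hochberg adjusted p under 0.05), where 12.3% of 5224 genes tested were called higher. Trem2 differed by 3.85 ± 0.46 (edgeR adjusted p = 0.000137), at 31.7 to 126 CPM in phagocytes and at 2.45 to 7.77 CPM elsewhere. Apoe differed by 3.80 ± 0.50 (edgeR adjusted p = 0.000292), Abca1 by 2.74 ± 0.49 (0.00187), Plin2 by 1.48 ± 0.44 (0.0256) and Fabp5 by 1.27 ± 0.33 (0.0145), all as log2 ± SE. Gpnmb, Cd36 and Lpl did not pass, with 1.75 ± 0.94 (edgeR adjusted p = 0.199), 0.36 ± 0.59 (0.707) and −0.19 ± 0.82 (0.899). Counting libraries rather than tests, 5 of the 10 genes (Mrc1, Msr1, Trem2, Apoe and Abca1) were higher in phagocytes in every library, as were 11.4% of genes tested. Of the called genes, Plin2 was not higher in FVIO-MHT replicate 1, at 1471 CPM in phagocytes and 1520 CPM in the rest, which in that library are mostly neutrophils. Fabp5 was not higher in FVIO-MHT replicate 2, at 86.1 CPM in phagocytes and 88.0 CPM in the rest.

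The Plin2 call ended with a minimum of 100 genes (1.01, edgeR adjusted p = 0.134) and without any one library other than FVIO-MHT replicate 1 (1.26 to 1.64), and the Fabp5 call without FVIO-MHT replicate 3, PBS replicate 1 or PBS replicate 2 (1.06 to 1.21). Size-factor scaling moved the median of all genes by −0.16 and the split of calls from 641 higher and 692 lower to 582 higher and 948 lower, and the same 7 genes stayed called.

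The classes outside the phagocytes gave the other sources of these genes. Cd36 held 1486 CPM in the 15 endothelial barcodes of FVIO-MHT replicate 2, 550 CPM in the 64 of replicate 3, and 1038, 1222 and 681 CPM in the 10, 19 and 9 of PBS replicates 1, 2 and 3. In phagocytes it did not exceed 88.8 CPM in any library. Lpl in fibroblasts was 939 and 79.8 CPM in FVIO-MHT replicates 2 and 3 and 277 and 814 CPM in PBS replicates 2 and 3, so the level varied more than 10 times between libraries of 25 or more fibroblast barcodes. Skin keratinocytes held 5625 CPM of Apoe and 760 CPM of Fabp5 in FVIO-MHT replicate 2, and 2352 and 1125 CPM in PBS replicate 3. Erythroid barcodes, which are not in the plot by class, held 152 CPM of Mrc1 in FVIO-MHT replicate 3, from 5 UMIs in 103 barcodes. Keratinocytes are a known site of Fabp5, and endothelial cells of muscle and fat a known site of Cd36.

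**Figure D2:**
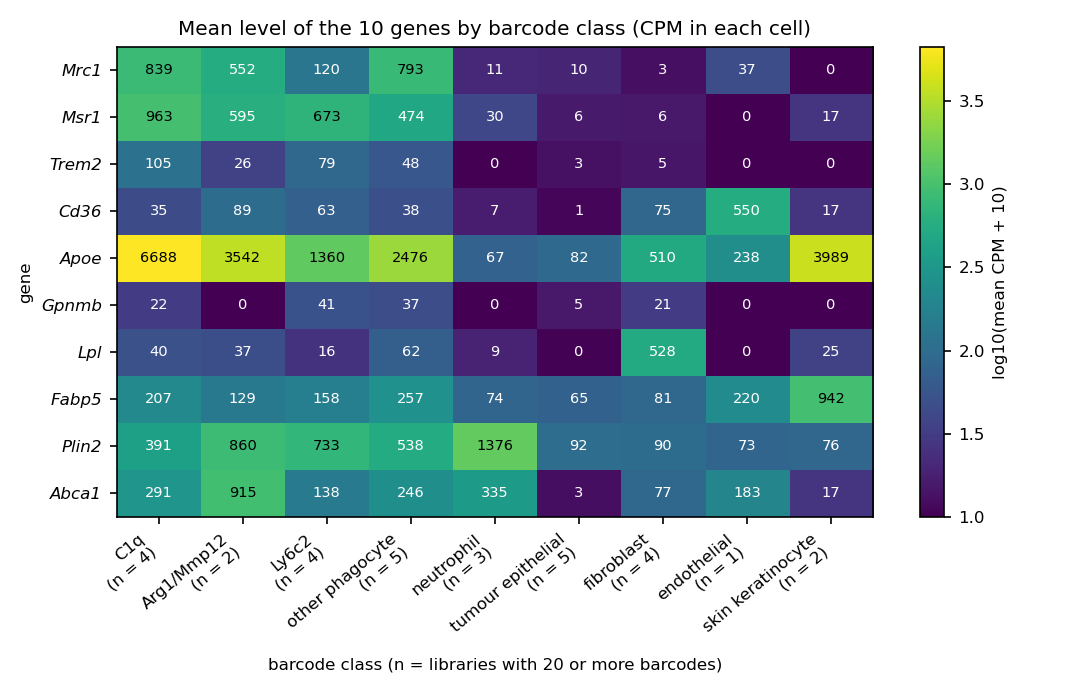
Mean level of each gene (rows) in each class of barcodes (columns), averaged over the libraries with 20 or more barcodes of the class, printed in CPM and coloured on a log10 scale. Of the classes drawn, the 4 phagocyte columns have the highest Mrc1 and Msr1; Plin2 is highest in neutrophils, Lpl in fibroblasts, and Cd36 in the 1 library with 20 or more endothelial barcodes.

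Free RNA can give UMIs to barcodes of cells that do not express a gene. The share of barcodes with a UMI was therefore set against that in tumour epithelial barcodes, after thinning every barcode to 300 UMIs. Mrc1 was then found in 13.9%, 18.3%, 23.8% and 24.8% of C1q barcodes of FVIO-MHT replicates 2 and 3 and PBS replicates 1 and 2, and before thinning in 18.4%, 29.2%, 33.3% and 41.1%. In tumour epithelial barcodes of the same 4 libraries the thinned share was at most 0.391%, although these are deeper (median 730 to 1696 UMIs, against 462 to 791 in C1q barcodes). Apoe was less confined to C1q barcodes. In FVIO-MHT replicate 3 it was seen in 86.3% of thinned C1q barcodes but also in 7.55% of thinned tumour epithelial barcodes. In PBS replicate 1 the shares were 42.9% and 0 of 265, a count that allows a share of up to 1.13%. Whether the Apoe UMIs of tumour epithelial barcodes were free RNA or the cells' own was not tested. Barcodes under 200 genes, where free RNA and shallow cells both end up, carried the most Apoe in the 2 libraries with the most C1q barcodes, at 2296 CPM (FVIO-MHT replicate 3) and 1533 CPM (PBS replicate 2), against 177 to 598 CPM in the other 4.

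Within the phagocytes, Mrc1 and Apoe were higher in macrophages marked by complement C1q than in monocytes marked by Ly6c2. C1q barcodes carried at least 2 UMIs of C1qa, C1qb and C1qc, which mark resident-like and tumour macrophages, and Ly6c2 barcodes at least 2 of Ly6c2, Ccr2, Ms4a4c and Plac8, which mark inflammatory monocytes. Both subsets had 20 or more barcodes in FVIO-MHT replicates 2 and 3 and PBS replicate 1, where they were compared within the library. Mrc1 rose from 69.3, 144 and 49.0 CPM in Ly6c2 barcodes to 665, 790 and 991 CPM in C1q barcodes, in that order of libraries. The difference was 3.05 ± 0.43 on the log2 scale (SE, 3 libraries, edgeR adjusted p = 0.00537). Apoe rose from 846, 3282 and 441 CPM to 5656, 13799 and 1888 CPM, by 2.35 ± 0.23 (SE, edgeR adjusted p = 0.000398). Both were higher in C1q barcodes in each library, although the Apoe level of Ly6c2 barcodes in FVIO-MHT replicate 3 exceeded that of C1q barcodes in PBS replicate 1.

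Mrc1 and Apoe were 2 of the 8 genes called higher in C1q barcodes, which is 0.784% of the 1021 genes tested, and 4 of those 8 (C1qa, C1qb, C1qc and Mmp12) are marker genes that set the subsets. The other 2 were Gatm, a creatine synthesis enzyme, and Pf4, a chemokine of platelets and macrophages, named after their values were seen. The remaining members that could be tested were not called. Msr1 differed by 0.69 ± 0.33 (edgeR adjusted p = 0.413), with 652, 615 and 392 CPM in Ly6c2 barcodes and 1098, 682 and 1039 CPM in C1q barcodes. Abca1 differed by 1.13 ± 0.45 (edgeR adjusted p = 0.328) and stood at 208, 82.0 and 98.0 CPM in Ly6c2 barcodes and at 299, 271 and 283 CPM in C1q barcodes. Plin2 went the other way, by −0.98 ± 0.39 (edgeR adjusted p = 0.331): it stood at 665, 1190 and 588 CPM in Ly6c2 barcodes and at 599, 346 and 330 CPM in C1q barcodes, lower in all 3 libraries. Fabp5 showed no direction, at −0.07 ± 0.44 (edgeR adjusted p = 0.975). Counting libraries, 4 of the 6 members tested (Mrc1, Msr1, Apoe and Abca1) were higher in C1q barcodes in each of the 3, as were 18.1% of genes, and Plin2 alone was lower in each, as were 18.5%. Trem2, Cd36, Gpnmb and Lpl had too few UMIs to pass the filter. Trem2 stood at 41.6, 61.5 and 49.0 CPM in Ly6c2 barcodes, from 3, 3 and 1 UMIs, and at 99.8, 195 and 0 CPM in C1q barcodes, from 3, 18 and 0 UMIs. In the Ly6c2 barcodes of FVIO-MHT replicate 3, Gpnmb reached 164 CPM (8 UMIs) and Cd36 144 CPM (7 UMIs), while both were at 0 UMIs in those of FVIO-MHT replicate 2 and PBS replicate 1. The Mrc1 call ended without FVIO-MHT replicate 2 (2.82, edgeR adjusted p = 0.235) and without FVIO-MHT replicate 3 (3.52, edgeR adjusted p = 0.0535), whereas the Apoe call held without each of the 3 libraries (adjusted p at most 0.0265).

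**Figure D3:**
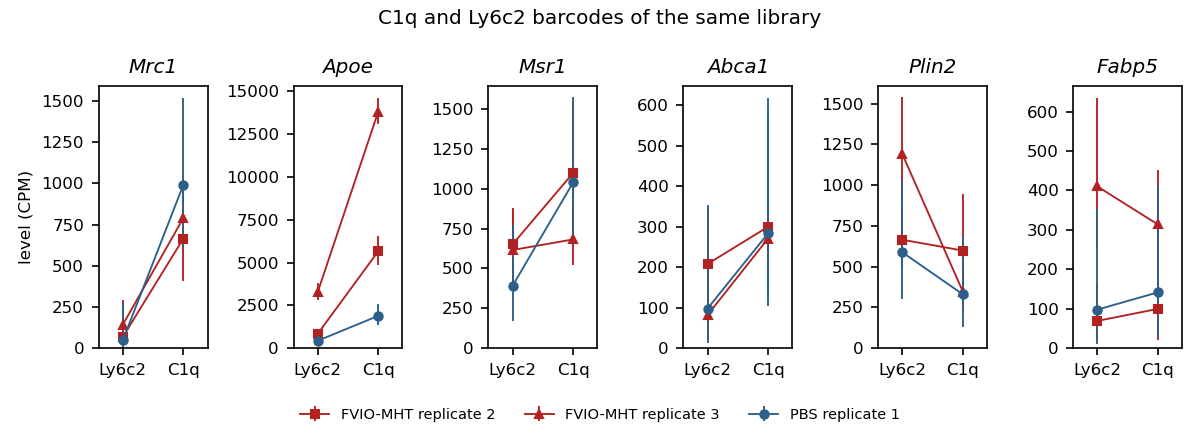
Level of 6 genes (y axis, CPM, linear, a scale of its own in each panel) in Ly6c2 and C1q barcodes of the same library, joined by a line for each of the 3 libraries with both subsets, with bars for the exact Poisson 95% interval of counting. Mrc1 and Apoe rise from Ly6c2 to C1q barcodes in all 3, and Plin2 falls from 665, 1190 and 588 CPM to 599, 346 and 330 CPM.

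The third subset, set by Arg1 and Mmp12, was too small for a test between groups, with 20 or more barcodes in FVIO-MHT replicate 1 (32) and PBS replicate 2 (24) alone. In PBS replicates 1, 2 and 3 these barcodes held 838, 897 and 1389 CPM of Mrc1, beside 991, 909 and 1195 CPM in C1q barcodes. With a minimum of 10 barcodes, which the 3 PBS libraries met and at which 5 of 315 genes were called, the log2 difference between C1q and Arg1/Mmp12 barcodes was −0.01 ± 0.35 for Mrc1, 0.35 ± 0.37 for Msr1 and 0.42 ± 0.42 for Apoe (SE, edgeR adjusted p = 0.995, 0.832 and 0.799). In FVIO-MHT replicate 1 the same subset held 207 CPM of Mrc1, from 4 UMIs (exact Poisson 95% interval 56.4 to 530 CPM), and 1605 CPM of Abca1, from 31 UMIs (1091 to 2278 CPM). The corresponding Abca1 levels in PBS replicates 1, 2 and 3 were 599, 224 and 198 CPM, from 13, 24 and 10 barcodes. The 224 CPM rested on 3 UMIs.

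The makeup of the phagocytes differed between the libraries. C1q barcodes made up 3.77%, 18.4% and 39.5% of phagocytes in FVIO-MHT replicates 1, 2 and 3 and 19.8%, 58.3% and 20.3% in PBS replicates 1, 2 and 3. Arg1/Mmp12 barcodes made up 60.4% in FVIO-MHT replicate 1 and between 0.980% and 12.7% elsewhere. Ly6c2 barcodes ranged from 7.55% in FVIO-MHT replicate 1 to 49.5% in FVIO-MHT replicate 2.

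Mrc1 lies on chromosome 2 (chr2:14229392-14332057, plus strand, GRCm38) and encodes a protein. Its promoter is shown because Mrc1 had the largest difference of the 10 genes between phagocytes and other cells, and of the 6 that could be tested between C1q and Ly6c2 barcodes. The window runs from 250 bases before to 50 bases after the start site (RefSeq, GRCm38.p6, chr2:14229164-14229463, plus strand), and capitals mark GAGGAA, the core of the sites bound by the myeloid factor PU.1, and GGGCGG, the GC box, each on either strand.
Mrc1: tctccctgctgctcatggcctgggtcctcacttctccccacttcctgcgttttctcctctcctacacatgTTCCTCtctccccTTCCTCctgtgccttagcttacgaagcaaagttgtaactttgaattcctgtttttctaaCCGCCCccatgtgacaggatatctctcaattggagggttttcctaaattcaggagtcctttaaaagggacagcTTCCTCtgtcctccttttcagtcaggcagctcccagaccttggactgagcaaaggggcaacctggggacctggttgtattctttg
The PU.1 core occurs 3 times, all on the minus strand as TTCCTC, at −180, −167 and −35, and the GC box once, at −108, counted from the start site at 0 to the leftmost base. Of 32851 RefSeq promoters of the same length, 28.3% hold at least 1 GAGGAA and 35.7% at least 1 GGGCGG, and neither match shows that a factor was bound.

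Between treatments, no member passed the threshold in phagocytes, and no gene of the 2040 tested did by edgeR (93, or 4.56%, had an unadjusted p under 0.05, and DESeq2 called 1). Of the 10 members 7 passed the filter on low counts there, and Mrc1 and Plin2 had unadjusted p values of 0.0402 and 0.0316. Mrc1 was at a lower level in each treated library than in any control and Plin2 at a higher one, positions held by 6.62% and 3.77% of genes tested. The Mrc1 mean was 379 ± 174 CPM over the treated and 837 ± 101 CPM over the control libraries (SD, n = 3 each), and the fitted log2 difference was −1.06 ± 0.46 (SE, edgeR adjusted p = 0.978). Without FVIO-MHT replicate 2 it was −0.71 and without FVIO-MHT replicate 3 −1.56.

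Plin2 stood at 1471, 724 and 577 CPM in the phagocytes of FVIO-MHT replicates 1, 2 and 3 and at 507, 311 and 441 CPM with PBS, a log2 difference of 1.19 ± 0.48 (SE, edgeR adjusted p = 0.978). It was 0.67 without FVIO-MHT replicate 1. Abca1 stood at 1471, 258 and 192 CPM against 254, 284 and 189 CPM, and its log2 difference of 1.34 ± 0.74 (edgeR adjusted p = 0.978) turned to −0.11 without FVIO-MHT replicate 1. Apoe stood at 2549, 2044 and 8745 CPM against 1284, 4569 and 1528 CPM, and its difference of 0.91 ± 0.69 (edgeR adjusted p = 0.978) turned to −0.05 without FVIO-MHT replicate 3. Each of these last values changed sign with 1 library left out. In the phagocytes of FVIO-MHT replicate 1 the granulocyte and inflammatory genes S100a8, S100a9, Cxcl2 and Il1b summed to 36046 CPM, against 11812 CPM in FVIO-MHT replicate 2, 4385 CPM in replicate 3 and 6207 to 8863 CPM with PBS, and their part in the Plin2 and Abca1 levels of that library was not tested. Abca1 in the neutrophils of FVIO-MHT replicate 1 was 349 CPM and in its barcodes under 200 genes 341 CPM, both below the 1471 CPM of its phagocytes. Plin2 in the same neutrophils was 1490 CPM and in the barcodes under 200 genes 1575 CPM, both above the 1471 CPM of the phagocytes.

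The other tested members moved less. Msr1 differed by −0.56 ± 0.40 and overlapped between groups, since FVIO-MHT replicate 2 (667 CPM) lay above PBS replicate 1 (650 CPM). Fabp5 differed by 0.56 ± 0.58, from 359, 86.1 and 404 CPM with FVIO-MHT and 159, 198 and 236 CPM with PBS, and by −0.11 without FVIO-MHT replicate 3. Trem2 differed by 0.09 ± 0.61, from 98.0, 57.4 and 123 CPM and 31.7, 106 and 126 CPM, so no direction could be read from it. Cd36, Gpnmb and Lpl rested on 30, 24 and 21 UMIs in the phagocytes of all 6 libraries and were not tested. Cd36 was between 28.7 and 88.8 CPM with FVIO-MHT and between 0 and 47.3 CPM with PBS, where the 0, in PBS replicate 1, allows up to 47.6 CPM. For Gpnmb the ranges were 7.17 to 98.0 CPM and 0 to 31.7 CPM, and for Lpl 0 to 64.5 CPM and 0 to 79.3 CPM. All 3 overlapped between the groups.

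**Figure D4:**
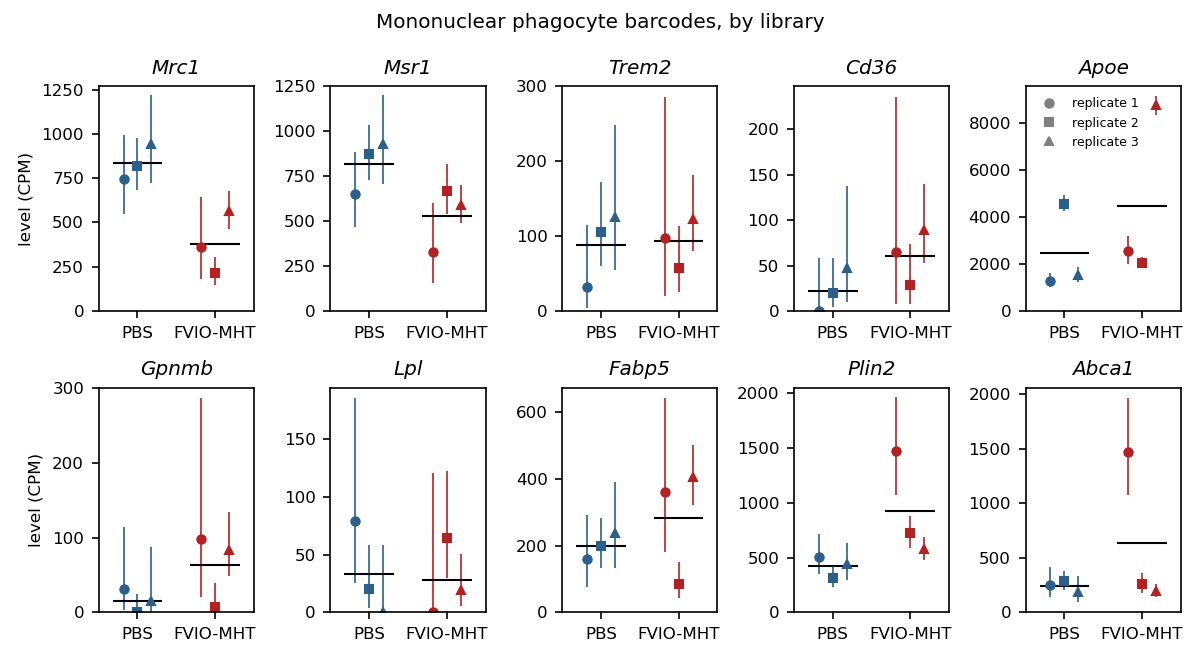
Level of the 10 genes (y axis, CPM, a scale of its own in each panel) in the mononuclear phagocytes of each library, by group, with the exact Poisson 95% interval of counting and a line at the mean of the 3 libraries. Mrc1 with FVIO-MHT lies between 215 and 562 CPM, below all PBS libraries (745 to 945 CPM), and the high Abca1 mean rests on the 1471 CPM of FVIO-MHT replicate 1.

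Within the C1q subset the Mrc1 difference was smaller than in the whole class, over fewer libraries. In C1q barcodes, which had 20 or more in FVIO-MHT replicates 2 and 3 and PBS replicates 1 and 2, Mrc1 was 665 and 790 CPM against 991 and 909 CPM, a log2 difference of −0.36 ± 0.55 (SE, edgeR adjusted p = 0.999) where the whole class gave −1.06. No call was made among 1384 genes (40, or 2.89%, at an unadjusted p under 0.05, and 0 by DESeq2). In Ly6c2 barcodes Mrc1 was at 69.3 and 144 CPM in FVIO-MHT replicates 2 and 3 and at 49.0 and 218 CPM in PBS replicates 1 and 3, and did not pass the filter. In phagocytes of none of the 3 subsets it was 151 and 576 CPM in FVIO-MHT replicates 2 and 3 and 710 CPM, from 5 UMIs in 15 barcodes, in replicate 1, against 1371, 662 and 1203 CPM with PBS. Only libraries with these subsets enter such values, and the part of subset makeup in the class difference was not tested.

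Among the members tested, Apoe had the largest difference between treatments in both the C1q and the Ly6c2 subset, and it was not called in either. In C1q barcodes it was 5656 and 13799 CPM with FVIO-MHT against 1888 and 5406 CPM with PBS, a log2 difference of 1.39 ± 0.74 (SE, edgeR adjusted p = 0.999). In Ly6c2 barcodes it was 846 and 3282 CPM against 441 and 871 CPM, a difference of 1.76 ± 0.80 (edgeR adjusted p = 0.848). Without FVIO-MHT replicate 2, which leaves FVIO-MHT replicate 3 alone against PBS and assumes that it varies like the PBS libraries, the edgeR test called both (1.92, edgeR adjusted p = 0.0374, and 2.47, edgeR adjusted p = 0.0077). Without FVIO-MHT replicate 3 they were 0.49 and 0.42. FVIO-MHT replicate 3 had high Apoe outside the phagocytes too, at 231 CPM in tumour epithelial barcodes against 0 to 82.0 CPM in the other 4 libraries that have them, and the part of free Apoe RNA was not tested.

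In the C1q barcodes Plin2 differed by 0.57 ± 0.58, from 599 and 346 CPM to 330 and 290 CPM with PBS, Msr1 by −0.25 ± 0.56, Abca1 by −0.10 ± 0.54 and Fabp5 by 0.01 ± 0.69 (log2 ± SE). Of the 6 members tested there, 3 (Mrc1 below, Apoe and Plin2 above) did not overlap between groups, beside 29.8% of all genes with 2 libraries against 2. In Ly6c2 barcodes, where 3 members and 725 genes were tested and 0 called (34, or 4.69%, at an unadjusted p under 0.05, and 2 called by DESeq2), Plin2 differed by 0.84 ± 0.56 and Msr1 by −0.07 ± 0.57. Plin2 there was 665 and 1190 CPM with FVIO-MHT against 588 and 490 CPM, without overlap, as for 39.0% of genes.

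Across all kept barcodes, Plin2 and Abca1 were the members with the largest differences. Plin2 stood at 1512, 453 and 162 CPM in FVIO-MHT replicates 1, 2 and 3 and at 149, 80.2 and 161 CPM with PBS, a log2 difference of 3.02 ± 1.00 (SE, edgeR adjusted p = 0.878). Abca1 stood at 552, 153 and 36.6 CPM against 46.6, 37.7 and 31.9 CPM, a difference of 3.22 ± 1.06 (edgeR adjusted p = 0.878). FVIO-MHT replicates 1 and 2 were high in both genes, while FVIO-MHT replicate 3 lay at the level of the PBS libraries. By edgeR 0 of 8603 genes were called (451, or 5.24%, at an unadjusted p under 0.05, Plin2 at 0.0154 and Abca1 at 0.0150 among them). DESeq2 called 94 genes, Plin2 (2.98, DESeq2 adjusted p = 0.0281) and Abca1 (3.20, DESeq2 adjusted p = 0.0293) among them. Plin2 was the 1 member of 10 whose groups did not overlap, where 12.6% of genes did not, and the gap to the nearest PBS library was 162 against 161 CPM. Without FVIO-MHT replicate 1 the differences were 1.23 and 1.25.

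The 2 libraries with high Plin2 and Abca1 were those with many neutrophils, 55.4% and 32.1% of kept barcodes. In a bulk sum of this kind, more cells of a type and more RNA per cell cannot be told apart, but the classes can be read one by one. Neutrophil barcodes held 1490 and 1379 CPM of Plin2 in FVIO-MHT replicates 1 and 2 and 1259 CPM in PBS replicate 1, the 3 libraries with 20 or more of them, with counting intervals that overlap (1266 to 1741, 1198 to 1579 and 872 to 1759 CPM). Their Abca1 was 349, 396 and 259 CPM (246 to 481, 302 to 510 and 104 to 534 CPM). After thinning, 30.6%, 28.2% and 24.0% of these neutrophils had a Plin2 UMI, and 0.755% to 2.86% of tumour epithelial barcodes did. With neutrophil barcodes left out, a setting chosen after the data were seen, the log2 difference was 2.56 for Plin2 and 3.16 for Abca1. This setting leaves other differences of makeup in place. FVIO-MHT replicate 1 had 0 tumour epithelial barcodes, which made up 13.6% to 53.6% of kept barcodes in the other libraries. Their mean was 91.6 CPM of Plin2 and 2.66 CPM of Abca1, and the part of their absence was not tested. Both genes were also high in barcodes of FVIO-MHT replicate 1 that were not classed as neutrophils. Unassigned barcodes of that library carried 1728 CPM of Plin2 and 414 CPM of Abca1, and its barcodes under 200 genes 1575 and 341 CPM. Neither kind was given a class, so both may hold neutrophils, and their share of them was not tested.

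**Figure D5:**
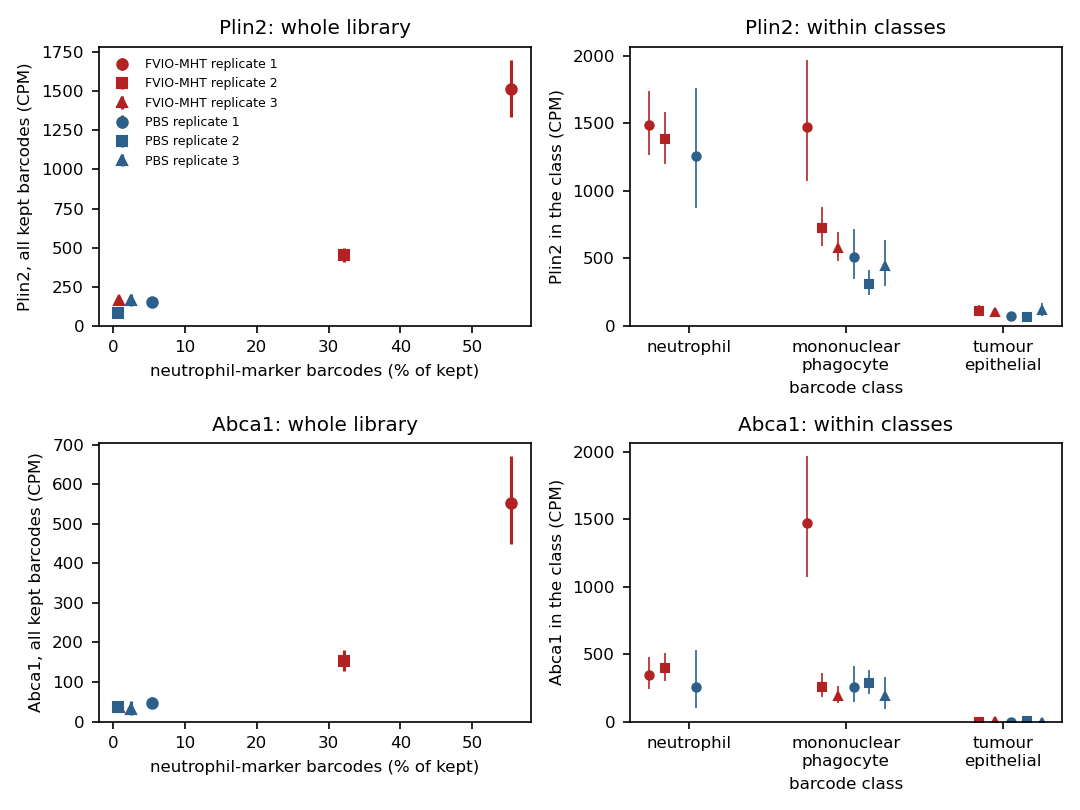
Left, level of Plin2 or Abca1 over all kept barcodes of a library (y axis, CPM) against the share of neutrophil barcodes (x axis, percent). Right, the same genes within 3 classes, for libraries with 20 or more barcodes of the class, with exact Poisson 95% intervals. Plin2 in neutrophils lies between 1259 and 1490 CPM in both groups, and Abca1 in phagocytes is high in FVIO-MHT replicate 1 alone (1471 CPM).

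Plin2 and Abca1 both lie on the minus strand of chromosome 4 (chr4:86648386-86670060 and chr4:53030787-53159895, GRCm38). Their promoters are shown because the levels of both genes were high in the same libraries and alike over 34 sums of a library and class (Pearson r of log2(CPM + 10) = 0.70, a description, since sums of 1 library share its depth). Capitals mark CACGTG (an E-box), AGGTCA (1 arm of the sites of nuclear receptors such as the liver X receptors and PPARs), TATAAA and GGGCGG on either strand, in windows of 300 bases (RefSeq, GRCm38.p6, minus strand, chr4:86670010-86670309 for Plin2 and chr4:53159846-53160145 for Abca1).
Plin2: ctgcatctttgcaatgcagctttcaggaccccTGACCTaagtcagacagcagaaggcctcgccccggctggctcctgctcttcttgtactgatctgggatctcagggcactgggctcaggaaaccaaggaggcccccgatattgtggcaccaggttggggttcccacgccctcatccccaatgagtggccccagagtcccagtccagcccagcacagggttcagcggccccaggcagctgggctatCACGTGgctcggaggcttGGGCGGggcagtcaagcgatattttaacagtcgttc
Abca1: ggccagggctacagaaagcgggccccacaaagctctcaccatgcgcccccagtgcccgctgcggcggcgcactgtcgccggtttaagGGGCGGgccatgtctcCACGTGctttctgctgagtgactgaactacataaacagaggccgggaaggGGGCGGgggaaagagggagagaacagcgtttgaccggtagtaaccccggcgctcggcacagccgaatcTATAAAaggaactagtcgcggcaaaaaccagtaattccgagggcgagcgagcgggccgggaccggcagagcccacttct
Both windows hold a CACGTG, at −4 in Plin2 and −147 in Abca1, as do 7.15% of RefSeq promoters. An AGGTCA stands at −218 in Plin2 on the minus strand (16.3% of promoters hold one), and a TATAAA at −29 in Abca1 (13.6%). GGGCGG occurs at 14 in Plin2 and at −163 and −97 in Abca1 (35.7%). The liver X receptors and the PPARs are known to bind direct repeats of AGGTCA together with their partner receptor. Exact repeats, with spacings of 4 and 1 bases, are in neither window and in 0.0152% and 0.0396% of promoters. Repeats with mismatches were not searched. So rare an exact match cannot tell whether a window lacks such a site. A match is a match of letters and says nothing of binding.

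The remaining members did not pass the threshold over all kept barcodes. Apoe was 502, 619 and 1419 CPM with FVIO-MHT and 136, 471 and 580 CPM with PBS (log2 difference 1.23 ± 0.67, SE, edgeR adjusted p = 0.892). Lpl was 44.1, 137 and 13.7 CPM against 7.95, 9.15 and 74.3 CPM (1.39 ± 1.06). Its high libraries, FVIO-MHT replicate 2 and PBS replicate 3, had the largest shares of fibroblast barcodes, 6.58% and 7.05% of those kept. The share did not follow the level elsewhere: FVIO-MHT replicate 3 had 6.24% at 13.7 CPM, and FVIO-MHT replicate 1 had 1.20% at 44.1 CPM, from 8 UMIs. Fabp5 was 105, 87.7 and 179 CPM against 47.7, 59.7 and 187 CPM (0.56 ± 0.63), Cd36 11.0, 59.9 and 38.9 CPM against 11.4, 19.9 and 38.2 CPM (0.90 ± 0.58). Trem2, Gpnmb, Msr1 and Mrc1 differed by 0.68 ± 0.59, 0.63 ± 0.82, 0.28 ± 0.49 and −0.15 ± 0.57. In the whole tumour sum Mrc1 overlapped between the groups, at 82.8, 47.7 and 81.3 CPM against 60.2, 69.4 and 149 CPM.

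The genes most like each member over the 34 sums were found among 9521 genes and carry no test, since they share libraries and depth. Mrc1 went with Gatm (r = 0.90) and Ms4a7 (0.87), and Msr1 with Ms4a6d (0.93) and Ms4a6c (0.92). Trem2 went with Ms4a4c (0.80) and the chemokine gene Ccl12 (0.79), and Apoe with Psap (0.76), a lysosomal protein. Ms4a7 and Ms4a4c are markers that set the classes. Plin2 went with Lilr4b (0.91) and Ptafr (0.90), the receptor of platelet-activating factor, and Abca1 with Mcl1 (0.84) and Hilpda (0.83), itself a lipid droplet gene. Lpl went with Serping1 (0.79) and Serpina3n (0.77), and Cd36 with Glul and the endothelial gene Esam (0.62 each). Fabp5 went with Atp5l (0.70) and Gpnmb with Ccdc102a (0.67). Among the members themselves the closest pair was Mrc1 and Msr1 (0.84).

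Other genes of uptake, storage and export placed the members in their pathways. Of 18 listed scavenger and uptake receptors 11 were tested in phagocytes against other barcodes; 6 were higher and 0 lower, beside 12.3% and 13.2% of all genes tested, with a median log2 difference of 2.44 where all genes had −0.10. They were Fcgr2b (4.32), Fcgr3 (3.18), Clec4n (4.36), Mertk (4.18), Stab1 (2.60) and Colec12 (2.44), which bind immune complexes, fungal sugars, dying cells and modified lipoproteins. Of 15 tested lysosome and lipid-associated macrophage genes 9 were higher and 2 lower (median 1.31), led by Lgmn (3.46) and Hexa (3.07), while Cd9 (−1.66) and Cd63 (−1.25) were lower. Of 8 genes around Trem2, 3 were higher: Tyrobp (3.01), its adaptor, Syk (2.15), the kinase below it, and Ms4a7, which is a class marker. Of 4 tested genes of sterol efflux and liver X receptor targets 2 were higher, Abcg1 (2.47), the partner of Abca1 in cholesterol export, and Pltp (1.92).

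Of 8 tested sterol synthesis genes, 4 were lower in phagocytes (Fdps, Msmo1, Hmgcs1 and Sqle, between −2.46 and −1.07) and 0 higher, with a median of −0.95, beside 13.2% of all genes tested called lower and 12.3% higher. Of 14 tested genes of lipid storage and lipolysis, 3 were lower, Acsl3 (−1.33), Fabp4 (−2.48) and G0s2 (−2.43), and 0 higher (median 0.35). G0s2 is a neutrophil marker of the class assignment, so its low level in phagocytes was set by it, and Fabp4 is known from endothelial cells and adipocytes. None of the 14 was called higher, where Plin2, the droplet coat, was called at 1.48 with the limits given above.

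Between treatments none of these lists had a called gene in phagocytes. The lowest unadjusted p values belonged to Lrp1, a receptor for apolipoprotein E and dying cells, at 1.49 ± 0.55, to Grn, progranulin, at 1.00 ± 0.41, and to the gate marker Ms4a7 at 0.85 ± 0.45 (log2 ± SE, edgeR adjusted p = 0.978 each). Stab1 differed by 1.19 ± 0.76, Pltp by 1.17 ± 0.77, Abcg1 by 0.46 ± 0.79, Ctsb by 0.70 ± 0.45 and Ctsd by 0.67 ± 0.48. Soat1, Npc2 and Dgat1, which esterify or move cholesterol and make triglyceride, differed by 0.35 ± 0.45, 0.27 ± 0.44 and −0.31 ± 0.59. Syk, Tyrobp and Scd2 differed by 0.29 ± 0.56, 0.19 ± 0.39 and −0.08 ± 0.47. The median was 0.33 over 15 lysosome genes and −0.22 over 7 scavenger and uptake receptors, beside −0.01 over all genes. In Ly6c2 barcodes, 11 of 11 lysosome genes tested had a positive value, with a median of 1.03 beside 0.06 over all genes and 0 called, whereas in C1q barcodes 6 of 14 did, with a median of −0.08. Both fits set 2 libraries against 2, and the dependence of these medians on single libraries was not tested.

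Between C1q and Ly6c2 barcodes the same lists gave no call either. Lgmn, a lysosomal protease, came closest at 1.58 ± 0.40 (edgeR adjusted p = 0.0933), followed by Fcgr2b at 1.21 ± 0.35 (0.158) and Grn at 1.01 ± 0.36 (0.279). Clec4n was 1.01 ± 0.44, Fcgr3 0.44 ± 0.36, Lamp1 0.70 ± 0.31, Ms4a7 1.24 ± 0.56, Soat1 0.62 ± 0.48 and Tyrobp 0.30 ± 0.32. Syk (−1.11 ± 0.47), Npc2 (−0.60 ± 0.26) and Hilpda (−0.49 ± 0.36) had the sign of Plin2. Of 13 lysosome genes tested 11 had a positive value (median 0.59, all genes 0.05).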

How the data were processed

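Each deposited matrix holds UMI counts for 27998 genes and 5000 barcodes, which the authors made by alignment with STAR 2.7.2b to mm10, according to the submitters' processing notes. The sources used here do not give the annotation, the counting tool, its use of strand or how the barcodes were picked. Rows repeating a symbol with identical counts (65) were dropped. Barcodes with at least 200 detected genes were kept, which held between 25.7% and 88.4% of a library's UMIs, with no limit on mitochondrial reads (at most 18.1%) and no doublet caller. A barcode took the class with the most UMIs of its markers (65 genes), at least 2 and more than any other class, or stayed unassigned. Counts were summed per library and class (at least 20 barcodes) and tested with edgeR 4.0.16 (quasi-likelihood, TMM scaling, filterByExpr, Benjamini-Hochberg over all genes tested), with the library as a block between classes. Group comparisons used the groups of the labels with no covariate. DESeq2 1.42.0, other scalings, filters, gene and marker minimums and each library left out were alternatives. The test was tested on simulated data. Intervals (exact Poisson or Clopper-Pearson, 95%) cover counting error only, and a count of 0 was given the limit of 3 UMIs. Levels are not compared between genes, since 3′ UMI counts carry no length or capture correction. Named genes are the 10 members, for each the 2 genes most alike over the class sums (at least 50 UMIs), and from each pathway list up to 3 genes of lowest p between treatments in phagocytes and between C1q and Ly6c2 barcodes. Genes called between phagocytes and other barcodes, and Gatm and Pf4, were named after their values were seen. Of the genes this rule gives, 2 are not reported here. The members, marker lists and pathway lists were chosen with earlier results of these data known. Of 178 listed symbols, Clec7a, Ighm, Trac and Trbc2 were not found. Promoters of 7 of the 10 genes were matched by symbol in a RefSeq table of GRCm38.p6, and gene positions are from GENCODE on GRCm38.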

Additional observations from a re-analysis of the deposited data

How the results depend on the processing

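With each library left out in turn, the number of genes called was 0 to 2 between treatments in phagocytes, 0 to 26 in C1q and 0 to 20 in Ly6c2 barcodes, 807 to 2384 between phagocytes and other barcodes (1333 with all), and 5 to 15 between C1q and Ly6c2 barcodes (24 with all). DESeq2 called 94 genes between treatments over all kept barcodes (84 higher, 10 lower), 1 in phagocytes and 2 in Ly6c2 barcodes. With no filter on low counts the calls were 2, 17, 3 and 7 between treatments (all kept, phagocyte, C1q and Ly6c2 barcodes), 2197 for phagocytes against the rest and 39 for C1q against Ly6c2. A minimum of 400 genes gave 2 calls between treatments in phagocytes and 2207 against the rest. A minimum of 100 genes gave 1 call in C1q barcodes and 51 between C1q and Ly6c2, and 1 marker UMI gave 5 and 43. C1q against Ly6c2 had 57 calls with a class's own marker UMIs alone and 42 with a minimum of 10 barcodes. The cause of these changes was not tested.

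Signs turned for small values. Over all kept barcodes Mrc1 was 0.10 with a minimum of 400 genes and 0.10 without neutrophil barcodes, and with single libraries left out ran from −0.51 to 0.35. In phagocytes Trem2 was −0.066 with a minimum of 400 genes and −0.0038 with own marker UMIs alone, and Abca1 −0.10 with a minimum of 400 genes. With single libraries left out, Trem2 there ran from −0.27 to 0.31, Abca1 from −0.11 to 1.82, Apoe from −0.053 to 1.76 and Fabp5 from −0.11 to 1.07. Fabp5 in C1q barcodes was −0.022 with own marker UMIs alone and −0.0026 without the shared barcodes, and ran from −0.33 to 0.46 with single libraries left out. Msr1 in Ly6c2 barcodes was 0.10 by DESeq2, 0.28 with no filter, 0.078 with a minimum of 100 genes, 0.21 with 1 marker UMI, 0.040 with own marker UMIs alone and 0.24 with 10 barcodes, and ran from −0.55 to 0.74 with single libraries left out. Against the rest, Lpl was 0.015 with a minimum of 100 genes, 0.12 with own marker UMIs alone and 0.13 without the shared barcodes, and ran from −0.90 to 0.36 with single libraries left out, while Cd36 was −0.58 with a minimum of 400 genes. Fabp5 between C1q and Ly6c2 was 0.084 by DESeq2, 0.80 with 1 marker UMI and 1.01 with own marker UMIs alone. The cause was not tested. Without neutrophil barcodes and without the shared barcodes are settings chosen after seeing the data.

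Replicate numbers gave no pairing: the correlations of same-numbered libraries were 0.186, 0.0474 and −0.105 over all kept barcodes and 0.0424, −0.0477 and 0.00718 in phagocytes. With the replicate number as a block edgeR called 0 genes in both, Plin2 and Abca1 were 2.20 and 2.14 over all kept barcodes, and Trem2 in phagocytes was −0.041. The block could not be fitted in the C1q or Ly6c2 subsets, nor could a minimum of 400 genes or 3 marker UMIs there or between the subsets. The comparisons planned for the Arg1/Mmp12 subset could not be run at 20 barcodes, and the one with C1q barcodes was run at 10. In phagocytes, depth limits Cd36, Gpnmb and Lpl most, at 21 to 30 UMIs over all libraries, followed by Trem2 with 62 UMIs.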
